A study of Mus musculus with 6 samples.

Results

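The 38 genes described here encode the integrins, the paired alpha and beta chains with which cells hold on to matrix and to each other, and the core proteins that tie integrins to actin in focal adhesions. They were chosen as a family, 25 integrin chains and 13 linker proteins, by what they encode, though earlier results of these data were known. A gene was measured where a probe set of the array names that gene alone, which held for 35 of the 38, among 18193 genes measured in this way. Itga11, Fermt1 and Ptk2 had no such probe set and were not analysed here. Where a gene had several, the brightest on average across the 6 arrays stood for it.

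The samples are cells sorted fresh from the marrow of adult, untreated, wild-type C57BL/6 mice. All were gated as negative for CD45, the leukocyte surface protein, TER119, an erythroid marker, and CD31, an endothelial one. Within that gate 3 samples are positive for Ebf2, a transcription factor of immature mesenchymal cells, and 3 are negative. Each array measured RNA amplified from 1000 or 2000 cells, and the design asks what sets the Ebf2-expressing cells apart. The sources used here do not say how Ebf2 was detected, which array had which cell number, or whether replicates came from separate animals, so p-values reflect the scatter among these samples alone, and that scatter may be technical.

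An integrin is a pair of chains, and the pair decides the ligand. Some alpha chains bind collagens, others laminins, and others the RGD motif of fibronectin and vitronectin, while leukocytes carry a set of their own that binds counter-receptors on other cells. Inside the cell, talin and kindlin bind the beta chain and switch the integrin on, the ILK, PINCH and parvin complex joins it to actin, and vinculin, paxillin, FAK and zyxin build and sense the adhesion. In marrow, integrins hold stromal cells in their matrix and blood progenitors and platelets to their partners.

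Signals are log2 RMA values, and every difference is Ebf2-positive minus Ebf2-negative with n = 3 arrays in each group. "Called" means an adjusted p under 0.05 from limma with Benjamini-Hochberg adjustment over all genes. Ebf2 itself followed the sort, at 8.33 ± 0.41 (SD, n = 3) against 3.66 ± 0.49 (adjusted p = 0.000476). Genes of the gated markers were set beside the gate: CD45's gene Ptprc stood between 3.59 and 6.76 in Ebf2-positive and between 7.98 and 8.78 in Ebf2-negative cells and was not called (adjusted p = 0.0698). CD31's gene Pecam1 stood between 3.15 and 4.15 and between 2.48 and 3.80 and was not called (adjusted p = 0.403), and 2 of 11 endothelial markers were called higher. For TER119, 13 of 14 erythroid markers were called lower in Ebf2-positive cells, with list means of 4.95 to 5.42 against 9.05 to 9.18. Markers of fibroblasts and of mural cells were called higher for 11 of 11 genes in each list. The poly-A control transcripts, which are spiked into a sample, read 12.31 ± 0.21 and 9.82 ± 0.99. Centring on them, here named poly-A centring, lowers every difference by 2.49, so all differences are relative to the other genes of the array. In bulk samples like these, fewer cells of a type and less RNA per cell cannot be told apart.

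Integrins and adhesion proteins differed between the groups in both directions. Of the 35 measured members, 10 were called higher and 6 lower in Ebf2-positive cells, and 19 were not called. Across all genes 24.4% were called, 10.8% higher and 13.6% lower. The members' median difference was 0.41, beside 0.07 over all genes, and the median size of the difference, without its sign, was 1.29 beside 0.50. Of the 10 higher members 6 differed at least 4-fold, and of the 6 lower members 3 did. Higher were Itga7, Itgb5, Fermt2, Parva, Itga8, Itgav, Zyx, Itga1, Vcl and Ilk, and lower were Itga4, Fermt3, Itgb2, Parvb, Itga2b and Parvg. The 16 called members were among 20 whose groups did not overlap, where 43% of all genes share that property. With poly-A centring 1 member was called higher and 21 lower, and only Itga7 kept a call as higher. That setting called 87.3% of all genes, 1.43% of them higher. None of the 16 called members changed sign under the further quantile normalization or the median or 75th percentile centring.

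**Figure D1:**
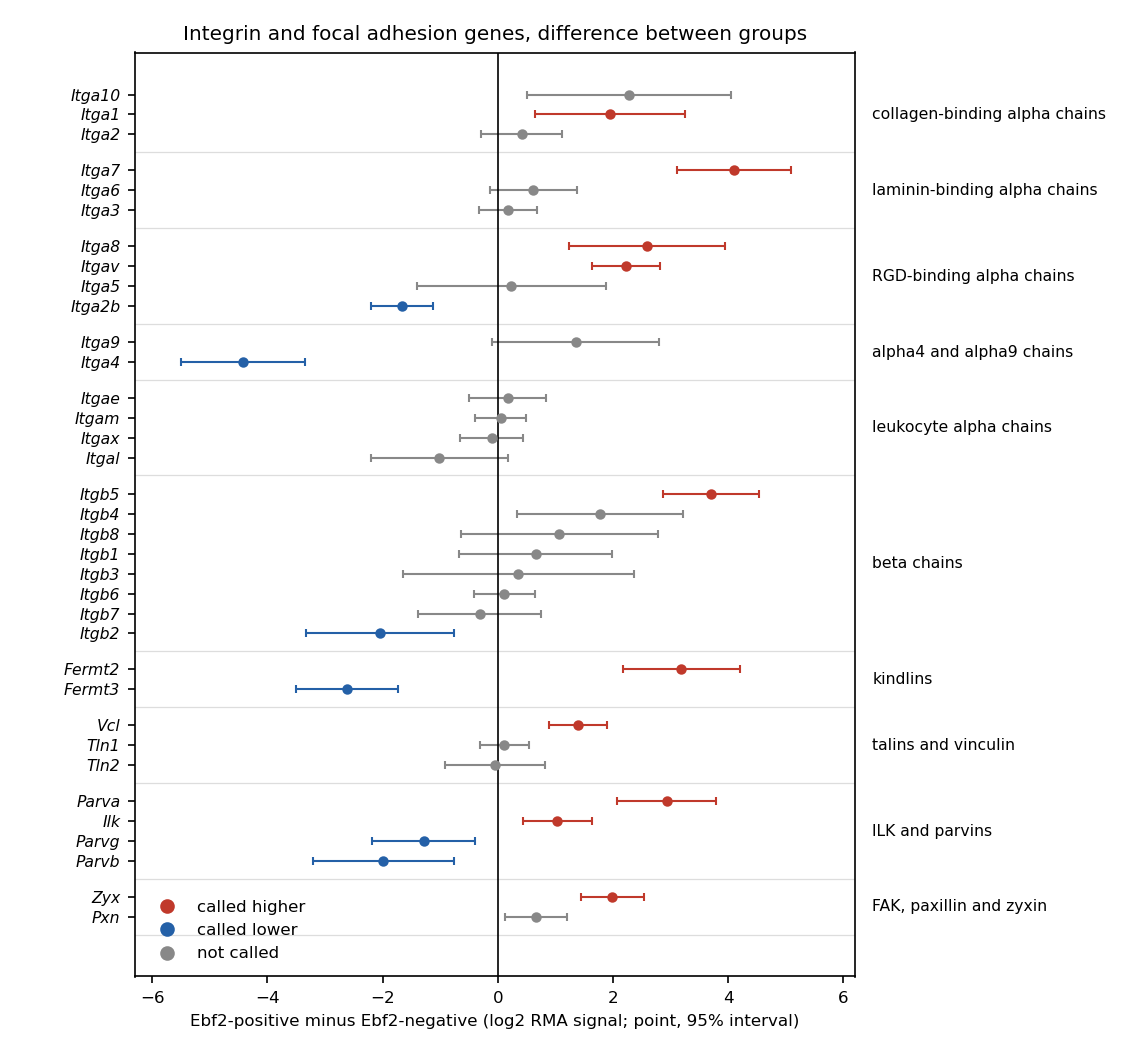
Difference between groups for the 35 measured members by role (x axis, Ebf2-positive minus Ebf2-negative log2 signal; point, limma estimate; bar, 95% interval; colour, call). The members range from 4.09 for Itga7 to -4.42 for Itga4, and with poly-A centring every point would move to the left by 2.49.

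Kindlins, which bind the beta chain tail and help talin to activate integrins, split between the groups. Fermt2 encodes kindlin-2, the form of mesenchymal and many other adherent cells. Its signal was 11.13, 10.94 and 11.25 in Ebf2-positive replicates 1, 2 and 3, and 7.64, 8.87 and 7.26 in the Ebf2-negative ones. The difference was 3.18 (SE 0.42), or 9.08-fold (adjusted p = 0.0033), and it was 0.69, not called, with poly-A centring (adjusted p = 0.372). Fermt3 encodes kindlin-3, the form of blood cells. It read 8.78, 8.20 and 9.05 in Ebf2-positive and 10.63, 11.67 and 11.59 in Ebf2-negative cells. It was lower by 6.14-fold (-2.62, SE 0.37, adjusted p = 0.00397). Every Ebf2-positive array was above every Ebf2-negative one for Fermt2 and below every one for Fermt3. Fermt3 was lower but not dim in Ebf2-positive cells, since it stood above the median of all probe sets on each array.

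Parvins, the actin-binding partners of ILK, split in the same manner. Parva, alpha-parvin, is the widely expressed form and is needed in vessel-wall mural cells. Its signal was 8.01, 7.86 and 8.22 in Ebf2-positive cells against 4.32, 5.56 and 5.40, a difference of 2.93 (SE 0.36, 7.63-fold, adjusted p = 0.00253) that was 0.44 with poly-A centring and then not called (adjusted p = 0.573). Parvg, gamma-parvin, is the form of blood cells. It read 4.74, 5.84 and 4.56 against 6.62, 6.15 and 6.23, and its difference of -1.29 (SE 0.37, 2.44-fold) only just passed (adjusted p = 0.0493). Parvb, beta-parvin, stood at 5.10, 6.15 and 4.08 in Ebf2-positive and 7.17, 7.30 and 6.82 in Ebf2-negative cells, lower by 3.96-fold (-1.99, SE 0.51, adjusted p = 0.0331). Without probe sets marked as shared by transcripts or genes, Parva was read by a dimmer probe set and was not called (0.76, adjusted p = 0.385), and over the mean of its probe sets it differed by 1.85. Parvb and Parvg are neighbours on chromosome 15 in the RefSeq annotation. Both moved in the direction opposite to Parva.

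The calls of Parvg and Parvb did not hold when some single arrays were left out. Parvg was not called without Ebf2-positive replicate 1 or 3 (adjusted p = 0.125 and 0.113) or Ebf2-negative replicate 1, 2 or 3 (0.153, 0.100 and 0.122), and Parvb was not called without Ebf2-positive replicate 1 (0.0818) or Ebf2-negative replicate 1, 2 or 3 (0.102, 0.101 and 0.0813). Over the mean of all their probe sets, Parvb and Parvg were not called either (-0.89 and -0.40, adjusted p = 0.126 and 0.37), and Parvg was not called under several other settings, further quantile normalization and 75th percentile centring among them. Without Ebf2-positive replicate 1, or any of Ebf2-negative replicates 1, 2 or 3, the count of members called lower was 3 and not 6. Calls over all genes fell as well, from 24.4% to 22.5% without Ebf2-positive replicate 1. Without Ebf2-negative replicate 1, 2 or 3 they were 16.3%, 18.1% and 14.8%.

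Ilk, the pseudokinase at the centre of the complex, was higher in Ebf2-positive cells by 1.03 (SE 0.25, 2.04-fold, adjusted p = 0.0269), a direction that poly-A centring turned (-1.46). Its 3 Ebf2-positive values, 10.31, 9.95 and 10.37, lay above the Ebf2-negative ones, 8.84, 9.52 and 9.18. It was no longer called without Ebf2-positive replicate 1 or 3 (adjusted p = 0.0661 and 0.0683) or Ebf2-negative replicate 1 or 3 (0.0835 and 0.0916). A single probe set measured Ilk.

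Comparing the paralogues within each array removes any scaling of the whole array, poly-A centring included. The log2 ratio of Fermt2 to Fermt3 was larger in Ebf2-positive cells by 5.80 (SE 0.51, 55.8-fold), that of Parva to Parvg by 4.22 (SE 0.73, 18.6-fold) and that of Itgb5 to Itgb2, integrin beta chains described below, by 5.74 (SE 0.76, 53.6-fold). In these 3 pairs the groups did not overlap. The pairs were chosen with earlier results known, and their genes were called in opposite directions, so the ratios restate those differences and are no separate support for them. The two-sided exact permutation test gave p = 0.1 for each, the smallest that 3 against 3 arrays allow, and p = 0.133 after adjustment over the 4 pairs tested. The fourth pair was the talins, where the ratio of Tln2 to Tln1 differed by -0.16 (SE 0.33, exact permutation p = 0.8). The ratio of Parva to Parvg differed by 2.05 without shared probe sets and by 2.25 over the mean of probe sets. A ratio within an array shows unequal change and does not say which gene of a pair moved.

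**Figure D2:**
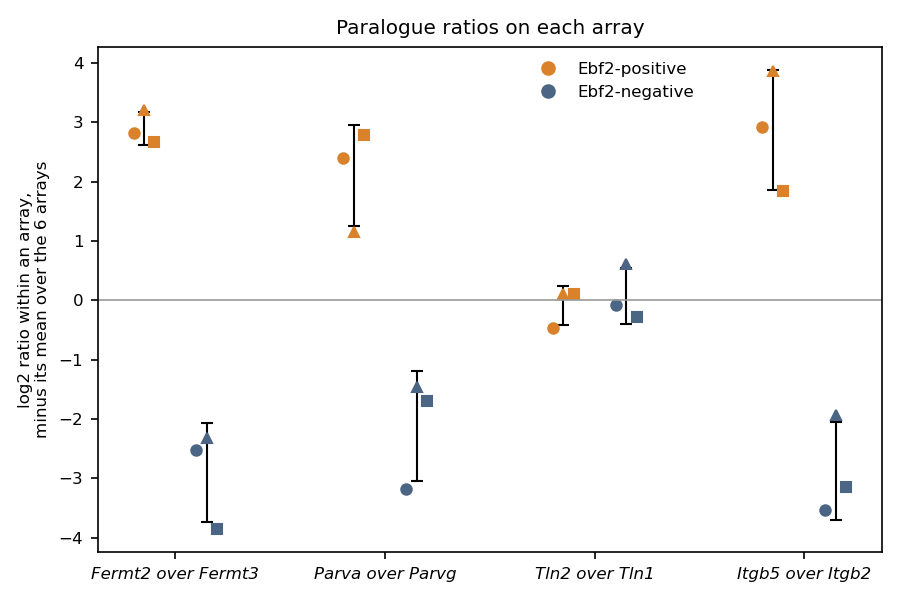
Within-array log2 ratio of paralogue signals, with each pair's mean over the 6 arrays subtracted (y axis), for each array (circle, triangle and square: replicates 1, 2 and 3; bar: mean ± SD of the group, n = 3). Ebf2-positive arrays lie above Ebf2-negative arrays for Fermt2 over Fermt3 (2.67 to 3.21 against -3.86 to -2.33), Parva over Parvg and Itgb5 over Itgb2, and overlap them for Tln2 over Tln1.

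Talins, the main activators of integrins, did not split. Tln1 was level across the arrays, at 8.50, 8.53 and 8.66 in Ebf2-positive and 8.42, 8.58 and 8.34 in Ebf2-negative cells. Its difference was 0.11 with a 95% interval of -0.31 to 0.54 (adjusted p = 0.69), and with poly-A centring it was -2.38. Tln2, the second talin, spanned 4.66 to 5.39 and 4.67 to 5.81 and differed by -0.05, with an interval of -0.92 to 0.82 (adjusted p = 0.941). The missed threshold does not show that the groups are alike, but a difference of Tln1 above 0.54 in size lies outside its interval.

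Vinculin and zyxin, which are recruited to adhesions under tension, were higher in Ebf2-positive cells on this scale, and both turned with poly-A centring (-1.10 and -0.50). Vcl read 11.11, 11.44 and 11.27 against 9.61, 9.95 and 10.08, a difference of 1.39 (SE 0.21, 2.63-fold, adjusted p = 0.00517) that was 0.68 over the mean of its probe sets. Zyx read 8.73, 8.76 and 8.56 against 6.32, 6.84 and 6.92, a difference of 1.99 (SE 0.23, 3.97-fold, adjusted p = 0.00199). Pxn, the scaffold paxillin, had groups that did not overlap (9.54 to 10.03 against 8.86 to 9.26), but its difference of 0.65 was not called (adjusted p = 0.0819). A second Pxn probe set, with a smaller spread in its values, was called higher among single probe sets (0.79, adjusted p = 0.0358).

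Promoter letters are printed for some members called in each direction, so that these linkers and integrins can be set beside their start sites. RefSeq windows of 300 bases (250 before to 50 after a gene's start, build GRCm38.p6) were at hand for 27 of the 38 members, 13 of them called (8 higher and 5 lower) and 12 measured and not called; Parva was not among them. The motifs were chosen after the members' values were known. Capitals mark matches on either strand to any of 7 motifs. These were the EBF palindrome, which is TCCC and then, after any 2 bases, GGGA, the CArG box of serum response factor, the RUNX core TGTGGT and the PU.1 site with the letters GAGGAAGT. The others were the site of GATA factors with the letters AGATAA and that of TEAD factors with the letters GGAATG. The last was the AP-1 site with the letters TGANTCA. The windows printed are those of the higher members with a CArG box and of the lower members with a RUNX motif. They do not stand for the other called members, whose windows are not printed. Fermt2 (chr14:45530016-45530315, minus strand) and Vcl (chr14:20929148-20929447, plus strand) were higher, and Fermt3 (chr19:7019420-7019719, minus strand), Itga4 (chr2:79255176-79255475, plus strand) and Parvg (the second of its starts, chr15:84325869-84326168, plus strand) were lower in Ebf2-positive cells.
Fermt2: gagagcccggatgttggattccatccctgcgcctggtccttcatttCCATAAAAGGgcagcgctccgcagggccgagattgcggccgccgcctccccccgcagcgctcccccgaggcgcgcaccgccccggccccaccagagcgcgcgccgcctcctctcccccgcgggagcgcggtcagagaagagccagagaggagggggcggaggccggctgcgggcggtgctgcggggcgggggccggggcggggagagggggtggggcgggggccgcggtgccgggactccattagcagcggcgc
Vcl: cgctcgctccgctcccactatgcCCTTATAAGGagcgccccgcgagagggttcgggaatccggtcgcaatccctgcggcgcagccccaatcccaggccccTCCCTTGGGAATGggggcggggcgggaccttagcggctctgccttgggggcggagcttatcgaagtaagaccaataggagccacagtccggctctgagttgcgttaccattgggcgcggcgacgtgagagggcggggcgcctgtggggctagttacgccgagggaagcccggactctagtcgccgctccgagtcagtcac
Fermt3: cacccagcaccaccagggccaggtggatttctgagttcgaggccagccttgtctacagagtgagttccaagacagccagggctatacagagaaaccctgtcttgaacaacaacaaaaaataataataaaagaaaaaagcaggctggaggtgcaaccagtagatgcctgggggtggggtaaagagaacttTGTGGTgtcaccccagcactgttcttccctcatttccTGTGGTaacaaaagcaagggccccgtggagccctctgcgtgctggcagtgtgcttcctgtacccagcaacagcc
Itga4: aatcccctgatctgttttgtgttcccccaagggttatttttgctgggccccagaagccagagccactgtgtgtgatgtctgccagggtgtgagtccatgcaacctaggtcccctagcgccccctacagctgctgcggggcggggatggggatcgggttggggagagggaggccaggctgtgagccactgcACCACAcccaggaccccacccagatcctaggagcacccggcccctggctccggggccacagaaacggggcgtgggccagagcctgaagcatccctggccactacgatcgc
Parvg: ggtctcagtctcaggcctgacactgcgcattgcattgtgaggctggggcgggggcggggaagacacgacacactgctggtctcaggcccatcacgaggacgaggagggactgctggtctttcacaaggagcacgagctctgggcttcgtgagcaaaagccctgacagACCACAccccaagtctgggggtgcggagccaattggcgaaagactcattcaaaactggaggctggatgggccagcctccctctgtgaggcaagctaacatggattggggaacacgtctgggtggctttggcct

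The capitals in Fermt2 and the first ones in Vcl are CArG boxes, 204 and 227 bases before the start. Of 8 higher members with a window, these 2 had a CArG box, of 5 lower members 0 did and of 12 uncalled members 1 did (Itgb6), beside 1.63% of all 32851 windows. The EBF motif was found in Vcl alone among the members, where 0.904% of all windows hold it, and there it overlaps a match to the TEAD motif. RUNX motifs were in the windows of 3 of the 5 lower members, those printed above (2 in Fermt3), in 1 of the 8 higher members (Ilk), and in 2 of the 12 uncalled ones, beside 16.8% of all windows. PU.1 motifs were in 1 higher (Itgav), 1 lower (Parvg, at its other start) and 2 uncalled members (3.2% of windows). TEAD (14.7%) and AP-1 motifs (7.81%) were each in 1 higher and 0 lower members (Vcl and Zyx), and in 2 and 3 of the 12 uncalled members. The GATA motif (11.2%) was in 0 called members and 1 uncalled member. A member was counted if any of its windows held the motif, and 4 members had 2 windows, whereas the percentages are per window. These matches describe letters in a short window and were not tested.

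Among integrin alpha chains, those that join the beta1 chain to bind laminin and collagen included members higher in Ebf2-positive cells. Itga7, a laminin receptor chain of muscle and mural cells, had the largest positive difference among the members' representative probe sets, though Itgb5 was above it over the mean of probe sets (4.18 against 4.09), without shared probe sets (4.46 against 4.09) and without Ebf2-negative replicate 2. It read 9.53, 9.07 and 9.18 against 4.56, 4.87 and 6.07, a difference of 4.09 (SE 0.41, 17.1-fold, adjusted p = 0.00132). It was the member that stayed called higher with poly-A centring (1.60, adjusted p = 0.0364). The other laminin chains, Itga6 (0.62, 95% interval -0.14 to 1.37, adjusted p = 0.215) and Itga3 (0.17, interval -0.34 to 0.67, adjusted p = 0.611), were not called. For Itga6 a second probe set was called higher, at 6.26 to 6.60 against 4.70 to 5.39 (1.37, adjusted p = 0.013 among probe sets).

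Itga1, a collagen receptor chain of mesenchymal and smooth muscle cells, read 7.06, 8.17 and 6.60 against 4.46, 6.04 and 5.47, a difference of 1.95 (SE 0.54, 3.87-fold, adjusted p = 0.0432). This call did not survive leaving out Ebf2-positive replicate 1 or 2 (adjusted p = 0.0837 and 0.0843) or Ebf2-negative replicate 1 or 3 (0.119 and 0.11), and the direction turned with poly-A centring (-0.54). Itga2, its neighbour in the genome and a collagen chain of platelets and epithelia, was not called (0.41, interval -0.29 to 1.12, adjusted p = 0.368).

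Itga10, a collagen receptor chain of cartilage, differed by 2.28 and was not called (adjusted p = 0.0698). It was high in Ebf2-positive replicates 1 and 3 (8.52 and 7.83) and near the Ebf2-negative values of 4.88, 5.07 and 5.07 in replicate 2 (5.51). Without Ebf2-positive replicate 2 its difference was 3.17 and was called (adjusted p = 0.00204). Cartilage markers followed the same arrays: the mean of 10 of them was 8.12, 5.18 and 8.30 in Ebf2-positive replicates 1, 2 and 3, and 5.15 to 6.04 in Ebf2-negative cells, and 2 of the 10 were called higher. Their part in the Itga10 values was not tested.

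RGD-binding chains, the receptors of fibronectin and vitronectin, went both ways. Itgav, the chain shared by the vitronectin receptors, read 9.68, 10.28 and 10.37 against 7.78, 7.84 and 8.06, higher by 2.22 (SE 0.25, 4.66-fold, adjusted p = 0.00179), though poly-A centring turned it to -0.27. Over the mean of its 5 probe sets, 4 of them dim, Itgav was not called (0.83, adjusted p = 0.141). Itga8, a beta1 partner of mesenchymal and smooth muscle cells, read 5.72, 6.30 and 5.99 against 2.10, 3.87 and 4.27, a difference of 2.59 (SE 0.56, 6.03-fold, adjusted p = 0.0186) that shrank to 0.10 with poly-A centring (adjusted p = 0.901). On 1 Ebf2-negative array Itga8 was below the array's median of all probe sets, and its fold is not exact either: the difference was 1.52 with a pseudocount of 16 and 1.40 over the mean of its 2 probe sets. Itga5, the classical fibronectin receptor chain, spanned 3.91 to 5.45 and 3.93 to 6.03 and was not called (0.23, interval -1.41 to 1.87, adjusted p = 0.835). Both Itgav and Itga8 had groups that did not overlap, while those of Itga5 did overlap.

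Itga2b, the alpha chain of the platelet fibrinogen receptor and a marker of megakaryocytes and early blood progenitors, was lower in Ebf2-positive cells. It read 5.58, 6.25 and 5.98 against 7.63, 7.56 and 7.62, a difference of -1.67 (SE 0.23, 3.18-fold, adjusted p = 0.00348). Megakaryocyte markers moved with it: 6 of 10 were called lower and 0 higher, and their mean lay between 3.78 and 4.50 in Ebf2-positive and between 5.70 and 6.40 in Ebf2-negative cells. Among them Pf4, a platelet chemokine, differed by -3.10 and Nfe2, a factor of platelet and red cell formation, by -4.14. Plek, also among the list's brightest on average, differed by -2.80 and was not called (2.93 to 7.18 against 7.30 to 8.27, adjusted p = 0.0953). No signal on this scale is at 0. The part of these markers in the Itga2b difference was not tested. Itgb3, which pairs with both Itga2b and Itgav, read 4.32, 6.89 and 7.71 against 6.34, 5.81 and 5.72 and was not called (0.35, adjusted p = 0.794), but without Ebf2-positive replicate 1 it was (1.35, adjusted p = 0.0466).

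Itga4, whose product with beta1 binds the vascular adhesion molecule VCAM1 and fibronectin and holds blood progenitors in the marrow, had the largest negative difference of the members. Its signal was 3.98, 2.83 and 2.92 in Ebf2-positive cells and 6.97, 7.73 and 8.28 in Ebf2-negative cells, lower by 21.4-fold (-4.42, SE 0.45, adjusted p = 0.00132). On 2 of the Ebf2-positive arrays it was below the array's median of all probe sets, so the fold is not exact: the difference was -3.09 with a pseudocount of 16 and -2.22 over the mean of all its probe sets. Of its 5 probe sets, 3 were called lower, by -4.42, -3.41 and -2.96, and the other 2 were dim, at means of 3.14 and 1.92. Itga9, the chain most like it, leaned the other way (5.90, 7.77 and 5.61 against 5.08, 5.59 and 4.57) and was not called (1.35, adjusted p = 0.165). Beside Itga4, 13 of 14 erythroid markers, 6 of 9 basophil and mast cell markers (means of 3.81 to 3.96 against 6.24 to 7.28) and 5 of 10 pan-leukocyte markers (5.35 to 6.54 against 7.52 to 7.93) were called lower, and 0 in each list higher. Of 11 macrophage markers 2 were called lower and 0 higher, and of 9 B lineage markers 0 lower and 1, Ebf1, higher. The part of these cells in the differences of Itga4, Itgb2, Fermt3, Parvb and Parvg was not tested.

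**Figure D3:**
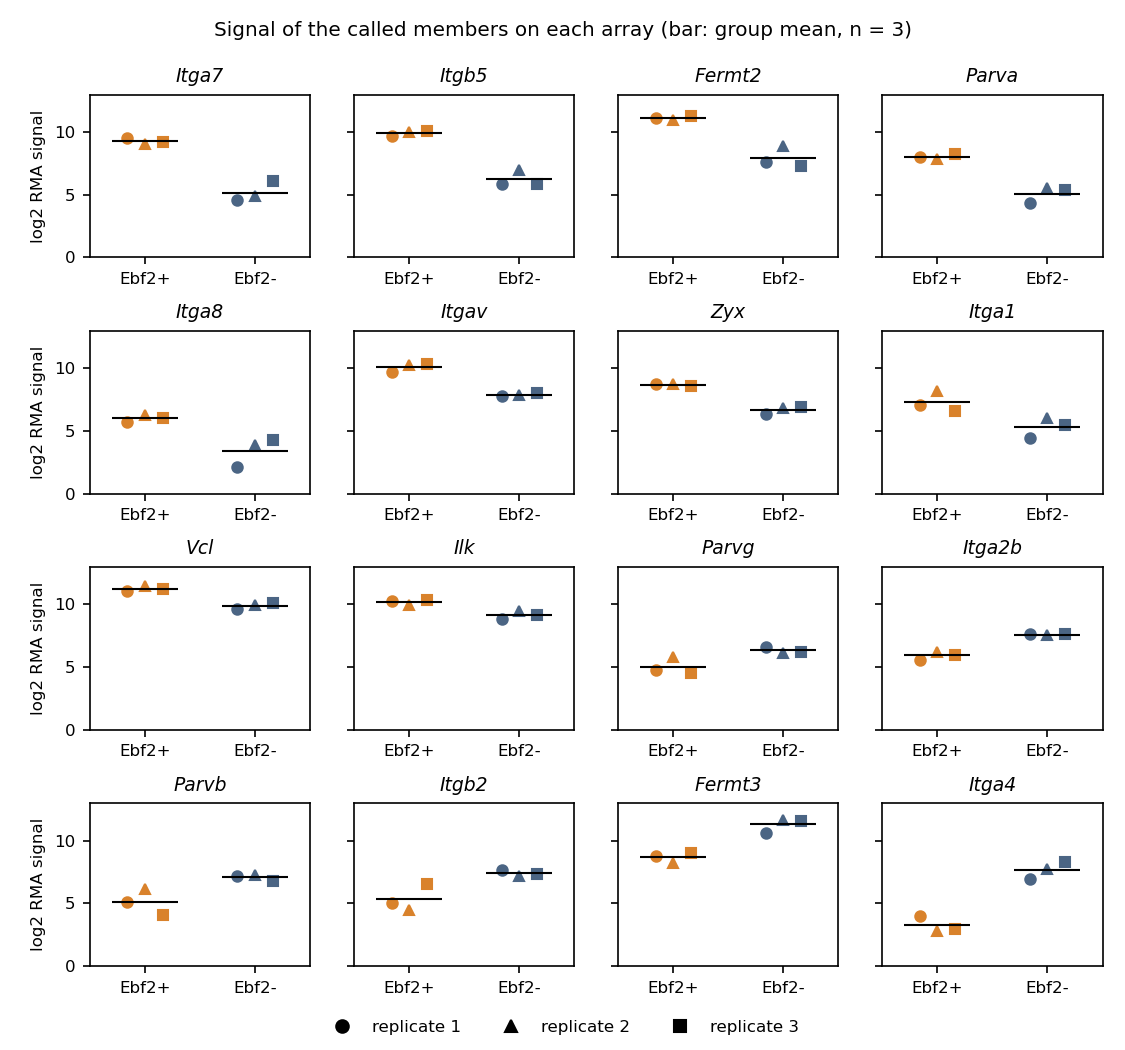
Log2 RMA signal (y axis) of the 16 called members on each array, in panels ordered by difference from Itga7, the first, to Itga4, the last (circle, triangle and square: replicates 1, 2 and 3; line: group mean, n = 3). In none of the 16 do the groups overlap, and Itgb2 and Parvb show the wider spread among Ebf2-positive arrays (SD 1.09 and 1.03).

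Of the leukocyte alpha chains Itgae, Itgal, Itgam and Itgax, 0 of 4 were called. Itgb2, the beta chain of Itgal, Itgam and Itgax, read 5.04, 4.46 and 6.58 in Ebf2-positive and 7.67, 7.19 and 7.34 in Ebf2-negative cells, lower by 4.11-fold (-2.04, SE 0.53, adjusted p = 0.0356). Itgb2 was not called in the absence of Ebf2-positive replicate 1 or 2 (adjusted p = 0.0989 and 0.0675) or any of the Ebf2-negative replicates 1, 2 and 3 (0.118, 0.0814 and 0.103). Itgal, the lymphocyte partner of Itgb2, differed by -1.02 (adjusted p = 0.196) and was called without Ebf2-positive replicate 3 (-1.49, adjusted p = 0.0469). Itgam and Itgax, the myeloid partners, spanned 1.81 to 2.14 and 2.59 to 3.27 over the 6 arrays, below each array's median of all probe sets (3.69 to 3.80), as were Itgae (2.43 to 3.31), which homes lymphocytes to epithelia, and Itgb6 (1.99 to 2.52), an epithelial chain. Itgae, Itgam, Itgax and Itgb6 differed by 0.17, 0.05, -0.11 and 0.11 (adjusted p = 0.702, 0.877, 0.77 and 0.748). Neutrophil markers were measured in both groups, with list means of 7.29 to 8.97 and 7.88 to 8.80 and 2 of 10 called higher. Itgb7, the gut-homing beta chain that pairs with Itga4 or Itgae, was not called (-0.32, interval -1.38 to 0.74).

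Of the 8 beta chains, Itgb5 alone was called higher. It pairs with Itgav as a vitronectin receptor, and its signal of 9.66, 10.03 and 10.12 in Ebf2-positive cells compared with 5.84, 6.95 and 5.89 in Ebf2-negative cells. The difference was 3.71 (SE 0.35, 13-fold, adjusted p = 0.001), and 1.21, not called, with poly-A centring (adjusted p = 0.114). Each of the 4 Itgb5 probe sets was called, with differences of 3.71 to 4.46. Itgb1, the partner of Itga1, Itga4, Itga7, Itga8 and Itga10 alike, was not called (0.65, interval -0.68 to 1.98, adjusted p = 0.45). It read 8.61, 8.37 and 6.72 against 7.82, 6.72 and 7.20. Leaving out 1 array at a time gave differences of 0.30 to 1.24 and no call (adjusted p = 0.063 to 0.771). Of its 6 probe sets 0 were called. Those with means of 2.18, 1.85 and 1.83 were dim, below the median of 3.83 over all probe sets. Itgb4, a laminin receptor chain of epithelia and Schwann cells, had groups that did not overlap (3.99 to 6.27 against 2.88 to 3.97) and was not called (1.77, adjusted p = 0.0804), but was without Ebf2-positive replicate 2 (2.33, adjusted p = 0.0218). Itgb8 was low on 5 arrays, at 1.55 to 2.25, and stood at 4.50 in Ebf2-positive replicate 3 alone (1.07, adjusted p = 0.339). Only Itgb5 and Itgb2 thus carried calls among the beta chains, in opposite directions. That is 25% of the 8, close to the 24.4% called over all genes.

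The probe sets that did not represent their gene were read as well. The array holds 81 that name a member alone, of which 17 were called higher, 7 lower and 57 not called among all single probe sets (15.1% of 45037 called). Of the 24 members with more than 1 probe set, 0 had probe sets called in both directions. Fermt3 had 3 of 4 called lower (-2.24 to -2.74), Fermt2 had 2 of 3 called higher (3.18 and 3.32), and Zyx had both called higher (1.99 and 1.08). The representative probe sets of Itga1, Itgb2, Parvb and Parvg were not called in this larger family (adjusted p = 0.0643, 0.0543, 0.0506 and 0.0702), although a second Itga1 probe set was (1.83, adjusted p = 0.0162). Second probe sets of Parva, Parvb, Parvg and Vcl were not called. They had mean signals between 2.50 and 3.57, below the median of 3.83 over all probe sets. Those of Parvb, Parvg and Vcl differed by 0.21, 0.49 and -0.03, opposite in sign to their representatives, and that of Parva by 0.76. Of the 57 uncalled probe sets 33 were below that median.

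**Figure D4:**
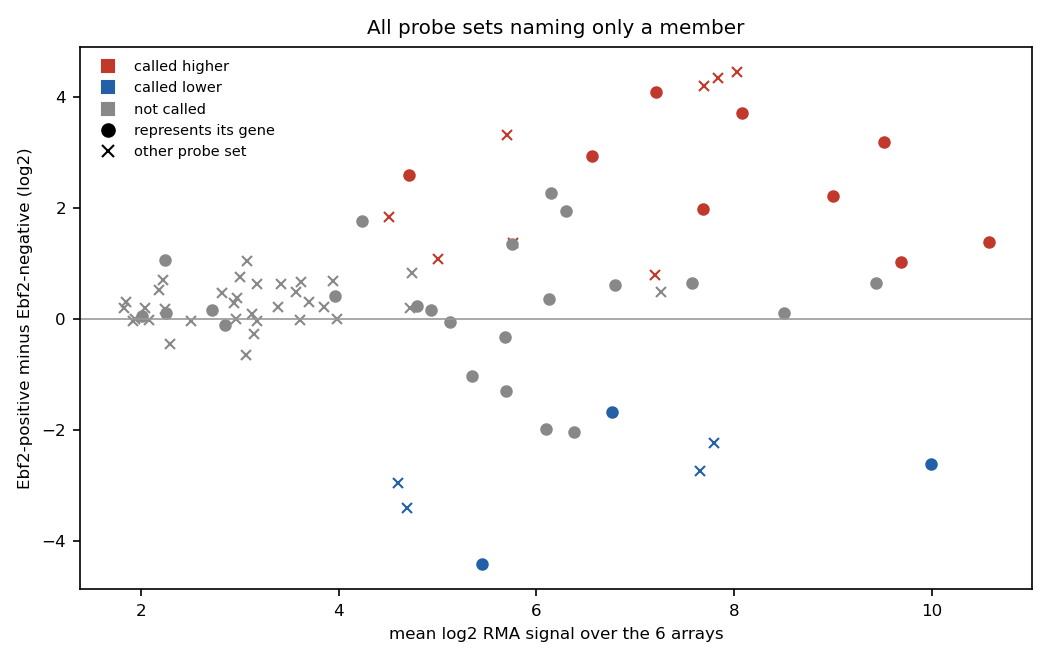
Difference between groups (y axis, log2) against mean signal over the 6 arrays (x axis, log2) for the 81 probe sets that name a member alone (circle: the probe set representing its gene; cross: another; colour: call among single probe sets). Called probe sets lie to the right of a signal of 4, and 33 of the 57 uncalled ones are below 3.83.

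Other proteins of adhesions leaned to the Ebf2-positive side. Of 59 measured adhesome genes outside the members, 28 were called higher, 1 lower and 30 not called. Over all genes 10.8% were called higher and 13.6% lower. The list's median difference was 1.06, beside 0.07 over all genes. With poly-A centring 1 gene of the list was called higher and 29 lower. That setting called 87.3% of all genes, 1.43% of them higher. Fhl1, a LIM protein of muscle, read 11.09, 11.66 and 11.81 against 6.39, 7.55 and 6.57 (4.69, adjusted p = 0.000634). Raph1, lamellipodin, a talin-recruiting partner of Ena/VASP proteins (3.72), Tns2, a tensin (3.56), and Cav1, the caveolae protein (2.94), were also higher. Lims2, the second PINCH, was higher by 3.43 (9.17 to 9.38 against 5.25 to 6.93), whereas Lims1, the first PINCH, was not called (0.32, adjusted p = 0.244). Tgfb1i1, the paxillin relative Hic-5 of smooth muscle, was higher by 2.83, while paxillin itself was not called. The lower gene was Rap1gap, which turns off the talin-recruiting GTPase Rap1 (-1.85, adjusted p = 0.00557). Rap1a and Rap1b were not called (0.26 and 0.36).

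Integrin ligands were largely higher in Ebf2-positive cells as well, 21 of 34 measured, with 1 lower and 12 not called. Their median difference was 2.70. Beside them 10.8% of all genes were called higher and 13.6% lower. With poly-A centring 9 ligands were called higher and 10 lower, where 87.3% of all genes were called, 1.43% of them higher. Vtn, vitronectin, the ligand of the Itgav and Itgb5 pair, was higher by 6.51 (9.94, 10.63 and 10.35 against 3.63, 3.77 and 4.01). Fn1, fibronectin, was higher by 5.87, Lama2, the laminin chain that Itga7 binds, by 5.90, and Tgfbi and Postn, secreted matrix ligands, by 5.57 and 4.89. Nid1, the basement membrane linker, was higher by 4.98. Vcam1, the cell-surface ligand of Itga4, was not called and read 7.57, 9.23 and 5.95 against 8.87, 10.32 and 8.37 (-1.60, adjusted p = 0.254). Icam2, a ligand of the Itgb2 integrins (-0.56, adjusted p = 0.115), and Ibsp, bone sialoprotein (-0.57, adjusted p = 0.456), were not called either. Vcam1, Icam2 and Ibsp are named as the uncalled ligands with the highest mean signal. They do not stand for all ligands of their integrins. The lower ligand was Cdh1, E-cadherin, which Itgae binds and which erythroid progenitors also carry (-2.72, adjusted p = 0.0224), and it lost its call without Ebf2-positive replicate 1 or 3 (adjusted p = 0.0628 and 0.0598) or Ebf2-negative replicate 1 or 3 (0.0714 and 0.0848).

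**Figure D5:**
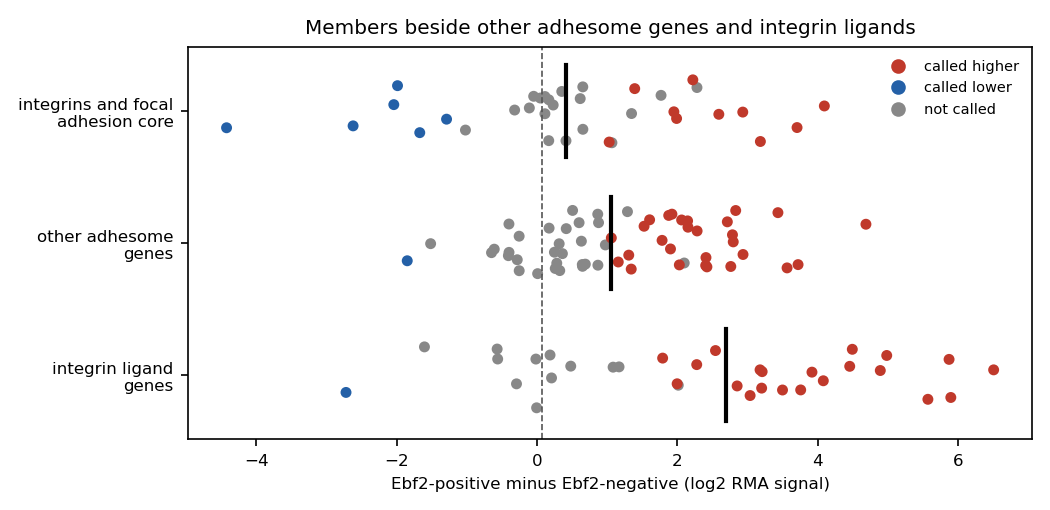
Difference between groups (x axis, log2 signal) for the 35 members, 59 other adhesome genes and 34 integrin ligand genes, 1 point per gene (height within a band is random; colour: call; black line: median of the list, 0.41, 1.06 and 2.70; dashed line: median of all genes, 0.07). The members spread to both sides, with 6 of 35 called lower and 1 in each of the other lists. Over all genes 13.6% were called lower and 10.8% higher. Poly-A centring would move all points to the left by 2.49.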

How the data were processed

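RNA from 6 sorted samples was amplified and hybridised to 6 one-colour Affymetrix mouse arrays. The deposited values are linear intensity per probe set, made with RMA per the submitters' processing notes, with no version stated there. RMA has no true zero and no detection call. Mean signals were therefore ranked only to choose probe sets and the genes to name, and for the signal filters. The median of all probe sets serves only to say which values are dim.

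Intensities were set to log2. Of 45101 probe sets, 64 controls were left out, and 34945 name 1 gene, 932 several and 9160 none in the platform annotation. Each gene took the probe set with the highest mean. Groups were compared with limma (3.58.1, R 4.3.3, lmFit and eBayes) over 18193 genes with Benjamini-Hochberg adjustment at 0.05, and the code was tested on simulated data. Within-array ratios took an exact permutation test. The number of arrays limits the precision.

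The members, lists, paralogue pairs and motifs were chosen with earlier results of these data known. All members are accounted for. Of the other lists, the genes named are those with the largest called differences (up to 6 in each direction) and up to 3 uncalled genes with the highest mean, and of each marker list up to 3 with the highest mean. Alternatives changed the scaling, signal filter, probe set rule, pseudocount, variance model and samples.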

Additional observations from a re-analysis of the deposited data

How the results depend on the processing

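Of the 16 called members, 11 stayed called without each single array, and the other 5 (Itga1, Itgb2, Ilk, Parvb and Parvg) did not. Without 1 array at a time, members called higher numbered 8 to 11 and lower 3 to 6, other adhesome genes higher 21 to 28 and lower 1 to 2, and ligands higher 19 to 23 and lower 0 to 1. The paralogue differences then spanned 5.32 to 6.09 for Fermt2 over Fermt3, 3.69 to 4.70 for Parva over Parvg, -0.34 to 0.10 for Tln2 over Tln1 and 5.25 to 6.26 for Itgb5 over Itgb2. Poly-A centring called 87.3% of all genes, 1.43% of them higher (44.3% in the main analysis, 54.2% centred on the 75th percentile). It gave 1 higher and 21 lower members, 1 higher and 29 lower adhesome genes, and 9 higher and 10 lower ligands, and it turned the sign of 20 members: Itga1 -0.54, Itga2 -2.08, Itga10 -0.21, Itga3 -2.33, Itga6 -1.88, Itga5 -2.26, Itgav -0.27, Itga9 -1.15, Itgae -2.32, Itgam -2.45, Itgb1 -1.84, Itgb3 -2.14, Itgb4 -0.73, Itgb6 -2.38, Itgb8 -1.43, Tln1 -2.38, Vcl -1.10, Ilk -1.46, Pxn -1.84 and Zyx -0.50. By construction it subtracts 1 value from every difference. A test against a minimum difference of 1 called 6 higher and 2 lower members, 12 and 0 adhesome genes, and 17 and 0 ligands. It called 7.88% of all genes, 54.1% of them higher. Lower adhesome genes numbered 2 when centred on the median and with trended, robust variances, and lower ligands 0 with a pseudocount of 16 and under both signal filters; the cause was not tested.

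The other sign changes were in members that were not called. Leaving out 1 array at a time gave ranges of -0.14 to 0.91 for Itga5, -0.085 to 0.33 for Itgae, -0.039 to 0.12 for Itgam, -0.27 to 0.072 for Itgax, -0.35 to 1.35 for Itgb3, -0.71 to 0.099 for Itgb7 and -0.28 to 0.28 for Tln2. Without both arrays numbered 2, Itga5 was -0.36, Itgax 0.046, Itgb3 -0.012, Tln2 0.21 and the ratio of Tln2 to Tln1 0.012. Centring on the 75th percentile gave 0.079 for Itgax and 0.14 for Tln2, and array weights gave -0.00035 for Itgam and 0.014 for Tln2. Itgam was -0.063 after further quantile normalization and -0.018 centred on the median, and Itgae was -0.0082 without probe sets marked as shared. Over the mean of its probe sets Tln2 was 0.34 and its ratio to Tln1 0.18. The cause was not tested.

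With the replicate number as a block, 10 members were called higher and 5 lower: Ilk and Parvg lost their calls (adjusted p = 0.0678 and 0.0761) and Itgb4 gained one (0.0344), and the block called 23.2% of all genes. Among the lists it gave 26 adhesome genes higher and 1 lower, and 21 and 1 ligands. Deviations of same-numbered arrays correlated at 0.058, 0.106 and 0.029, and those of differently numbered arrays at -0.100 to 0.042. The same-numbered values were not all over 0.1, so the numbers were not taken as pairs. Whether same-numbered arrays share an animal or a batch is not stated and was not tested. Ebf2-negative replicate 3 correlated better with Ebf2-positive replicate 1 (0.042) than with its own number. Every other array correlated best with the array of its own number in the other group.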
